A study of Mus musculus with 5 samples.

Results

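DEAD box and DEAH box proteins are RNA helicases, enzymes that use ATP to pull apart RNA duplexes or to strip proteins from RNA. They are named after the amino acids of a short ATP-binding motif in their shared core, and they act in transcription, splicing, mRNA export, ribosome assembly, translation, RNA decay and the sensing of viral RNA. Dhx30 is a member that acts largely in mitochondria, where it is found at RNA granules and takes part in the assembly of the mitochondrial ribosome. The genes described here are all rows of the deposited table whose name starts with DDX or DHX followed by a digit, leaving out Dhx30, which 1 of the siRNAs targets. This rule found 44 genes of 12930, of which 30 carry a Ddx name and 14 a Dhx name. All 44 had a value in every siRNA library and were among the 12088 genes tested. The question addressed was whether relatives of Dhx30 differ in RNA level when an siRNA against Dhx30 is given.

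The cells were OG2 mouse embryonic stem cells, a line that carries a fluorescent reporter of the pluripotency gene Pou5f1, with the strain given as (CBA/CaJxC57BL/6J) with 129Sv/Jae. The conditions sequenced were 3: 2 libraries from cells given siRNA against Dhx30 (siDhx30), 2 from cells given siRNA against Tfam (siTfam), which encodes the main DNA-packaging and transcription factor of mitochondria, and 1 from cells labelled as negative control (NC). All groups share the same culture: 24 h in N2B27 medium with LIF and the inhibitors PD0325901 and CHIR99021, then 50 nM siRNA while the cells spent 36 h with bFGF and Activin A instead. The labels do not say that replicates were separate cultures, so the p-values speak only of differences among these libraries, and that spread may be technical. The deposited value is a log2 ratio per gene and siRNA library, read here as being against the single NC library. No levels were used, so the depth is unknown and the presence of stem cell markers could not be checked. Of 12 listed stem cell markers, 2 have a row in the table.

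All values are given as siRNA over NC, which turns the deposited sign round. The headings state no direction. It was inferred from the 842 genes with a missing value, whose 1574 remaining values were all negative as deposited. If a value is missing where neither library of a pair had reads, such a gene is at 0 in NC, and any value it has elsewhere must be positive as siRNA over NC. The authors' rule for missing values is unknown, and every direction below would turn round if the inference is wrong. Read this way, Dhx30 lay at -0.40 and -0.20 in the siDhx30 libraries and at 0.01 and 0.04 in the siTfam libraries. Its mean in siDhx30 was 81.2% of the NC level (123% if the deposited sign were kept), with a 95% interval on the log2 scale of -0.85 to 0.25 (limma adjusted p = 0.998), so a knockdown was not established. Tfam lay at 0.12 and -0.01 in siDhx30 libraries, and at -0.28 and -0.02 in siTfam libraries, where its mean was 90.2% of NC, or 111% with the deposited sign (limma adjusted p = 0.987). The values of the helicase genes are therefore reported for libraries labelled siDhx30 or siTfam, not for cells shown to have lost either RNA. A single NC library, with no replicate of its own, underlies every ratio.

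The family motif was looked for in the coding sequences, to see whether the genes chosen by name carry it. In the longest GENCODE M21 coding sequence of each gene, the in-frame codons of 6 forms of the motif were searched on the coding strand, written here by their amino acid letters as DEAD, DECD, DEAH, DECH, DEIH and DEVH. Exactly 1 form was found once in 39 of the 44 genes: DEAD in 22, DEAH in 9, DEVH in 3, DECD in 2, DEIH in 2 and DECH in 1. Dhx29, a translation initiation helicase, held both a DEVH and a DEAD match, and Ddx21, Ddx50, Ddx52 and Dhx32 held none of the 6. Codons for DEAD were found in 0.748% of 21782 protein-coding genes, for DEAH in 0.344% and for DEVH in 0.266%. The stretches below are shown for Dhx30 itself and for the genes with the values that recur in this report. Each runs 5′ to 3′ on the coding strand, with the 12 bases of the motif in capitals.
Dhx30: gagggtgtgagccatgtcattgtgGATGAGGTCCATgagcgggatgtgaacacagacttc
Dhx36: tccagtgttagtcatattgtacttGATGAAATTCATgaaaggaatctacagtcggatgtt
Dhx40: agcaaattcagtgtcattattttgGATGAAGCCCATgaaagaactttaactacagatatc
Dhx37: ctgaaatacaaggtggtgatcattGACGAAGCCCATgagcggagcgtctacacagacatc
Ddx41: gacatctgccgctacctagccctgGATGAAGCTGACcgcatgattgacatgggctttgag
Ddx55: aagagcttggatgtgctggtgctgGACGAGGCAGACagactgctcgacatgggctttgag
On GRCm38 these stretches lie at chr9:110087649-110087708 (minus strand) for Dhx30, chr3:62493830-62493889 (minus) for Dhx36, chr11:86799642-86801022 (minus, split by an intron) for Dhx40, chr5:125426693-125426752 (minus) for Dhx37, chr13:55533032-55533091 (minus) for Ddx41 and chr5:124558107-124558166 (plus) for Ddx55, all in coding exons. The printed Dhx30 motif is of the DEVH form and that of Dhx36 of the DEIH form. Dhx40 and Dhx37 carry DEAH, and Ddx41 and Ddx55 carry DEAD.

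As a family, the helicase genes lay close to NC in every library and were less spread than genes at large. The interquartile range of the 44 genes was 0.195 and 0.183 log2 units in siDhx30 replicates 1 and 2, against 0.492 and 0.391 for all 12088 genes. In siTfam replicates 1 and 2 it was 0.339 and 0.305, against 0.466 and 0.492 for all genes. In replicate 1 of siDhx30 and of siTfam, 4 and 2 of 44 genes had ratios beyond 0.5 in size (9.09% and 4.55%), where 23.6% and 23.2% of all genes did. In replicate 2 of siDhx30 and of siTfam, 4 and 3 of 44 did (9.09% and 6.82%), and the SD over the genes was 0.31 and 0.25, where that over all genes was 0.59 and 0.65. The replicates also differed less: the median gap between the siDhx30 replicates was 0.110 for helicase genes and 0.230 for all genes, and between the siTfam replicates 0.140 for helicase genes and 0.242 for all genes. Since abundance is unknown and low counts give noisy ratios, the part that abundance plays in this was not tested. All 44 helicase genes are protein-coding, while 9257 of the 12088 genes matched a protein-coding gene. The part of gene type in the narrower spread was not tested either. The narrower spread is not shown to be particular to this family. Means of 15 RNA helicases under other names ranged from -0.44 to 0.36 in siDhx30 and from -0.85 to 0.23 in siTfam. Those of the 44 genes ranged from -0.84 to 0.47 in siDhx30 and from -0.85 to 0.25 in siTfam. In bulk RNA, fewer cells of a type and less RNA per cell cannot be told apart.

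**Figure D1:**
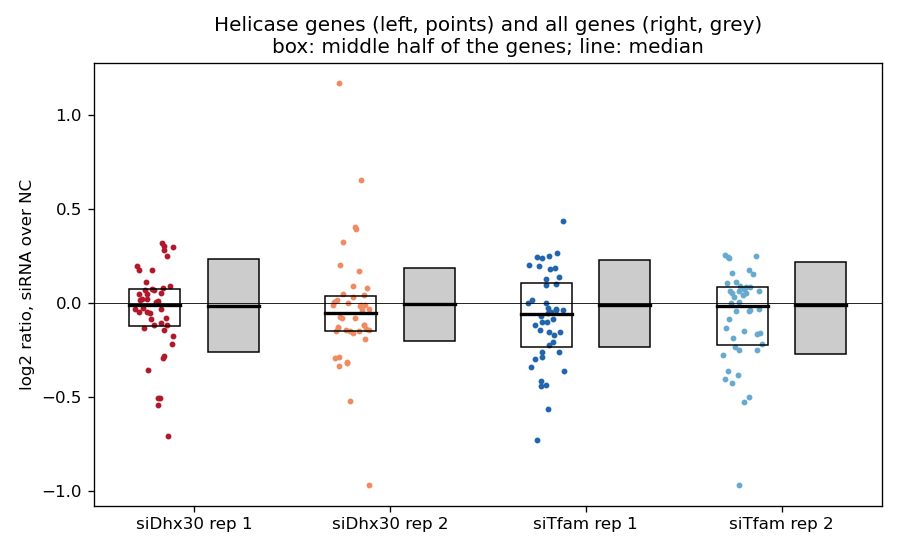
Log2 ratios over NC (vertical axis) of the 44 helicase genes, as points with an open box, and of all 12088 genes, as a grey box, in the 4 siRNA libraries; boxes span the interquartile range and thick lines are medians. The open boxes are narrower than the grey boxes in each library, and all medians lie near 0.

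No helicase gene passed an adjusted p of 0.05 in any of the 3 comparisons (limma over all 12088 genes), and neither did any other gene, so the background share called was 0.0% each time. At an unadjusted p under 0.05, 1 of 44 helicase genes was found in siDhx30 against NC (5.04% of all genes), 1 of 44 in siTfam against NC (6.11% of all genes) and 0 of 44 in siDhx30 against siTfam (2.79% of all genes). In the comparisons against NC that gene was Dhx40. With length and GC trends removed, 2 helicase genes were found in siDhx30 against NC (Dhx40 and Ddx41), beside 5.3% of the protein-coding genes. Leaving out 1 library moved these counts too. Without siDhx30 replicate 1, 2 genes were found in siDhx30 against NC (Dhx40 and Dhx32) and 2 in siDhx30 against siTfam (Dhx32 and Ddx56), beside 5.75% and 5.5% of all genes. Without replicate 2 of the siRNA compared, 0 were found in siDhx30 against NC and 0 in siTfam against NC. The intervals are wide: the median 95% interval of a helicase gene, not adjusted for the number of genes, reached 0.58 log2 units to each side against NC and 0.47 between the siRNAs. After adjustment larger shifts went uncalled too, such as that of Dhx40, and such shifts are not shown to be absent in other genes.

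Dhx40, a little-studied DEAH helicase related to those of the spliceosome, had the largest difference from NC among the helicase genes in each comparison with NC. Its ratios were -0.71 and -0.97 in siDhx30 and -0.73 and -0.97 in siTfam. All 4 libraries lay below NC, and the ranges of both siRNAs overlapped almost fully. The mean was -0.84 in siDhx30 (SE 0.23, n = 2), or 55.8% of the NC level (179% with the deposited sign), with a limma adjusted p of 0.847. In siTfam it was -0.85 (SE 0.23, n = 2), or 55.5% of NC (180.3% with the deposited sign), with a limma adjusted p of 0.695. Unadjusted, p was 0.0227 in siDhx30 and 0.0219 in siTfam, and without replicate 2 it was 0.0825 in siDhx30 and 0.0744 in siTfam. The difference between siDhx30 and siTfam was 0.01, with an interval of -0.52 to 0.54. Both comparisons use the same NC library, so what is common to both cannot be told apart from a high Dhx40 value in that library. Among all genes, 4.49% lay lower than Dhx40 in siDhx30 and 5.12% in siTfam. Dhx40 was also the only helicase gene below -0.5 in all 4 libraries, 2.27% of the 44 genes beside 2.79% of all genes, and 0 of 44 lay above 0.5 in all 4, beside 2.65% of all genes. The gene lies on chromosome 11 (GRCm38, 86768846 to 86807746, minus strand) and shares no exon base with another annotated gene.

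**Figure D2:**
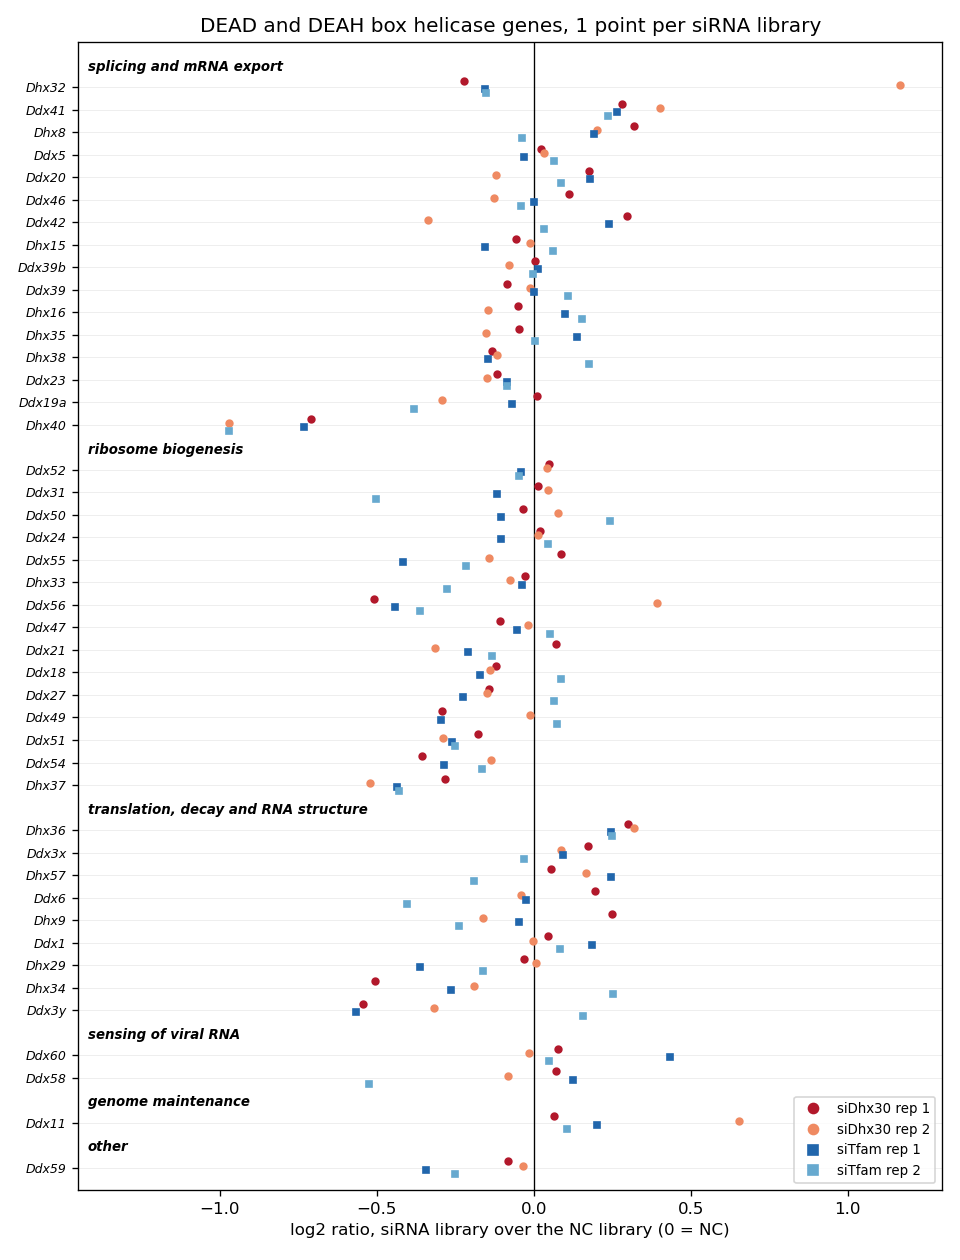
Log2 ratio over NC (horizontal axis) of each of the 44 helicase genes in the 4 siRNA libraries, with genes grouped by role and ordered by their siDhx30 mean. Dhx40 lies left of -0.5 in all 4 libraries, while most genes have points on both sides of 0 or close to it.

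Few other helicase genes kept to one side of NC in all libraries. Below NC in all 4 libraries were 7 of 44 genes (15.9%), beside 22.4% of all genes, and above it were 3 of 44 (6.82%), beside 20.1% of all genes. The 7 were Dhx40, Dhx37, Ddx54, Ddx51, Ddx23, Ddx59 and Dhx33, and the 3 were Ddx41, Dhx36 and Ddx11. These shares are no larger than the background.

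Among the genes above NC, Ddx41, which encodes a helicase associated with the spliceosome, lay at 0.28 and 0.40 in siDhx30, with 0.27 and 0.24 in siTfam. Its siDhx30 mean of 0.34 had an interval of -0.17 to 0.85. An antisense gene, Gm46416, shares 17.4% of the exon bases of Ddx41, and whether reads were counted by strand is not given in the sources used here. Dhx36, which unwinds G-quadruplexes, lay at 0.30 and 0.32 in the siDhx30 libraries, and 0.25 and 0.25 in the siTfam libraries. The 4 values lay close together, and the siDhx30 mean was 0.31 (SE 0.18, n = 2), or 124.0% of NC (80.7% with the deposited sign), with a limma adjusted p of 0.998. The DNA helicase gene Ddx11, which acts in chromatid cohesion, lay at 0.07 and 0.65 in siDhx30, with 0.20 and 0.11 in siTfam. Its siDhx30 mean of 0.36 therefore rests mostly on replicate 2. Dhx8, which frees finished mRNA from the spliceosome, lay at 0.32 and 0.20 in the siDhx30 libraries, and 0.19 and -0.04 in the siTfam libraries.

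In siDhx30 against NC, both replicates lay above NC for 10 of 44 helicase genes (22.7%, beside 32.1% of all genes) and below it for 18 of 44 (40.9%, beside 34.9%). The median over the 44 genes was -0.03, with 27 below 0, and that over all genes was -0.01, with 51.9% below 0. In siTfam against NC, both replicates lay above NC for 10 of 44 (22.7%, beside 32.0% of all genes). Both lay below it for 17 of 44 (38.6%, beside 34.4%). The siTfam median was -0.04, with 27 below 0, where 52.7% of all genes lay below 0. Among siDhx30 libraries, replicate 1 had 22 of 44 genes below NC and replicate 2 had 30 of 44. Of all 12088 genes, 6260 and 6158 lay below NC in these libraries. Beyond Dhx40, the lowest means with both replicates below NC belonged to Ddx3y, Dhx37, Dhx34 and Ddx54. Ddx3y, the Y-linked counterpart of the translation factor Ddx3x, lay at -0.54 and -0.32 in siDhx30, with -0.57 and 0.16 in siTfam. Ddx3x itself lay at 0.17 and 0.09 in the siDhx30 libraries, and 0.09 and -0.03 in the siTfam libraries. The sequences of these genes are close, and how reads that match both were counted is not stated. The part of such reads in these values was not tested. Dhx34, which takes part in nonsense-mediated decay, lay at -0.50 and -0.19 in siDhx30, with -0.26 and 0.25 in siTfam.

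For some genes 1 siDhx30 library set the mean. Dhx32, a divergent relative of the splicing helicases, lay at -0.22 and 1.17 in siDhx30, the widest gap between replicates among the helicase genes, and at -0.15 and -0.15 in siTfam. Its mean of 0.47 in siDhx30 has an interval of -1.30 to 2.25. Without siDhx30 replicate 2 the gene lies below NC, and Bccip, on the opposite strand, shares 4.89% of its exon bases. Ddx56, a nucleolar helicase, likewise lay at -0.51 and 0.39 in siDhx30, on opposite sides of NC, against -0.44 and -0.36 in siTfam.

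The 6 genes whose motif is of the DEVH or DEIH form, as that of Dhx30 is, did not lie to one side in siDhx30. They are Dhx9, Dhx29, Dhx34, Dhx36, Dhx57 and Ddx60, with a median of 0.04, 4 above NC and 2 below, in a range of -0.35 to 0.31. The 9 genes with only DEAH had a median of -0.10 and 7 below NC, and the 22 with only DEAD a median of -0.04 and 14 below. Of all genes, 51.9% lay below NC in siDhx30. In siTfam the same 3 classes had medians of 0.01, 0.02 and -0.08. Dhx9, which unwinds long duplexes in nucleus and cytoplasm, lay at 0.25 and -0.16 in the siDhx30 libraries, and -0.05 and -0.24 in the siTfam libraries. Dhx57, whose role is little known, lay at 0.05 and 0.17 in siDhx30, with 0.25 and -0.19 in siTfam.

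By role, 15 of 16 listed helicases of ribosome biogenesis were measured, the missing one being Ddx10. These enzymes act in the nucleolus on pre-rRNA and on the small nucleolar RNAs paired with it. In siDhx30 against NC their median was -0.06, with 11 of 15 below 0 (73.3%), beside 51.9% of all genes. In siTfam against NC it was -0.16, with 14 of 15 below 0 (93.3%), beside 52.7% of all genes. Both comparisons share the NC library. By library, 10 and 10 of 15 lay below NC in siDhx30 replicates 1 and 2, and 15 and 9 of 15 in siTfam replicates 1 and 2. Of all 12088 genes, 6260 and 6158 did in the siDhx30 replicates, and 6183 and 6205 in the siTfam replicates. The medians of the list were -0.11 and -0.07 in siDhx30 and -0.21 and -0.13 in siTfam. The near-uniform side in siTfam therefore comes from replicate 1: without it, 9 of 15 lie below 0. Between siDhx30 and siTfam, where the NC library plays no part if all values are plain ratios against it, the list had a median difference of 0.03. Lower in siDhx30 were 6 of 15 (40.0%), beside 50.2% of all genes. Without siTfam replicate 2, only 2 of 15 were lower in siDhx30, with a median of 0.08. None of the 15 passed the limma test in any comparison, and none had an unadjusted p under 0.05 with all libraries in the fit.

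Dhx37, needed for a late step of small ribosomal subunit assembly, lay at -0.28 and -0.52 in the siDhx30 libraries, and -0.43 and -0.43 in the siTfam libraries. All 4 values were below NC, at a mean of 75.6% of NC in siDhx30 and 74.2% in siTfam (limma adjusted p = 0.998 and 0.889). With the deposited sign these would be 132% in siDhx30 and 135% in siTfam. Ddx54, a nucleolar helicase, lay at -0.36 and -0.14 in siDhx30, with -0.29 and -0.17 in siTfam, and an antisense gene, Gm43579, shares 14.2% of its exon bases. Ddx51, which acts on large subunit rRNA, lay at -0.18 and -0.29 in the siDhx30 libraries, and -0.26 and -0.25 in the siTfam libraries. For Ddx31 and Ddx55, also nucleolar, the libraries of the siRNAs did not overlap. Ddx31 lay at 0.01 and 0.05 in siDhx30, against -0.12 and -0.50 in siTfam. Ddx55 lay at 0.09 and -0.14 in siDhx30, against -0.42 and -0.22 in siTfam. Ddx21, which couples rRNA transcription and processing, lay at 0.07 and -0.32 in siDhx30, with -0.21 and -0.13 in siTfam. Ddx52 had the highest siDhx30 mean of the list, 0.04, from values of 0.05 and 0.04.

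**Figure D3:**
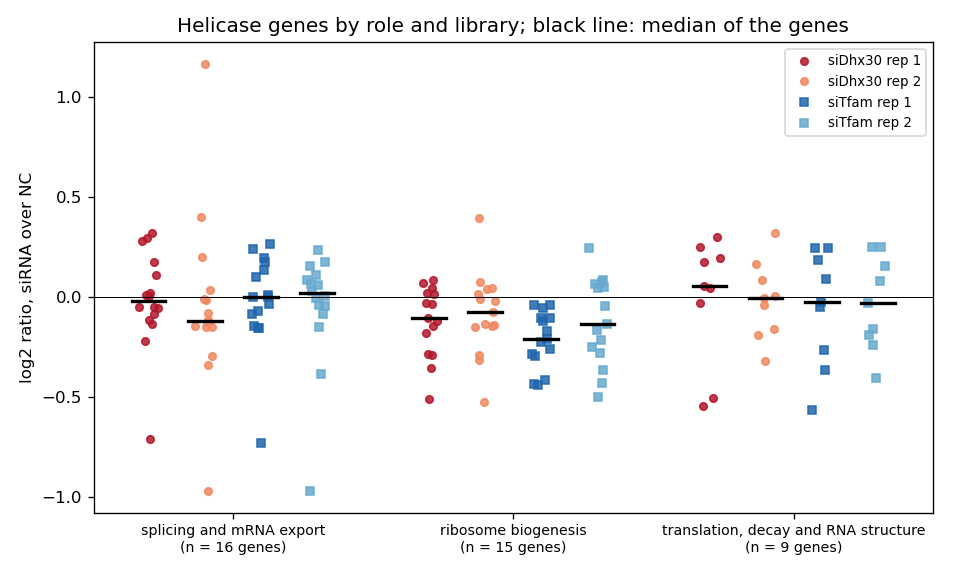
Log2 ratio over NC (vertical axis) of helicase genes in 3 role lists, 1 column of points per siRNA library, with the median of the genes as a black line. All 15 ribosome biogenesis genes lie below 0 in siTfam replicate 1, and the other columns have points on both sides of 0.

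Helicases of splicing and mRNA export, with 16 of 18 listed genes measured (not Ddx17 or Ddx19b), had a median of -0.04 in siDhx30 against NC, with 11 of 16 below 0 (51.9% of all genes), and of 0.02 in siTfam against NC, with 6 of 16 below 0 (52.7% of all genes). In siDhx30 replicate 1, 8 of 16 lay below NC, and in replicate 2, 12 of 16, beside 6260 and 6158 of all 12088 genes. Dhx15, which takes spliceosomes apart, lay at -0.05 and -0.01 in the siDhx30 libraries, and -0.15 and 0.06 in the siTfam libraries. Ddx5, a co-regulator of transcription and splicing, lay near NC in all libraries, at 0.02 and 0.03 in siDhx30, with -0.03 and 0.06 in siTfam. Ddx23, a helicase of the U5 snRNP, lay at -0.12 and -0.15 in the siDhx30 libraries, and -0.09 and -0.09 in the siTfam libraries. Ddx42, which associates with the U2 snRNP, lay at 0.30 and -0.34 in siDhx30, against 0.24 and 0.03 in siTfam, and so had no common side.

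The 9 helicases of translation, decay and RNA structure had a median of 0.04 in siDhx30 against NC, with 3 below 0 (51.9% of all genes), and of -0.0054 in siTfam against NC, with 5 below 0 (52.7% of all genes). Ddx6, which acts in mRNA repression and decapping, lay at 0.19 and -0.04 in siDhx30, with -0.03 and -0.40 in siTfam. Dhx29 lay at -0.03 and 0.01 in siDhx30, against -0.36 and -0.16 in siTfam. Of the sensors of viral RNA, Ddx58 (RIG-I) lay at 0.07 and -0.08 in the siDhx30 libraries, and 0.13 and -0.53 in the siTfam libraries, and Ddx60 at 0.08 and -0.01 in siDhx30, with 0.43 and 0.05 in siTfam. Both siDhx30 libraries lay near NC for these sensors, and the siTfam replicates differed more. Dhx58 and the mitochondrial helicase Ddx28, which is found at the same granules as Dhx30, have no row in the table and are not analysed here. The naming rule did not pick 14 genes, among them Ddx18, Ddx20, Ddx46 and Dhx38. They lay between -0.29 and 0.18 in the siDhx30 libraries and between -0.38 and 0.25 in the siTfam libraries. Of their means, 10 and 9 lay below NC in siDhx30 and siTfam, beside 51.9% and 52.7% of all genes.

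When siDhx30 is set directly against siTfam, there are 2 libraries on each side. NC cancels, provided that every deposited value is a plain ratio against the same NC library, which the headings do not state. Both siDhx30 values lay above both siTfam values for 8 of 44 helicase genes (18.2%, beside 14.7% of all genes) and below them for 5 of 44 (11.4%, beside 14.3%). The median difference was 0.02, with 18 of 44 genes lower in siDhx30 (40.9%, beside 50.2% of all genes), and it lay between -0.0046 and 0.0412 when 1 library was left out. All 44 intervals included 0. The 5 highest of the 8 genes were Ddx31 (0.34, interval -0.21 to 0.89), Ddx55 (0.29, -0.21 to 0.79), Dhx29 (0.25, -0.20 to 0.70), Ddx59 (0.24, -0.17 to 0.65) and Dhx8 (0.18, -0.29 to 0.66). For Ddx59, a helicase tied to cilium-dependent signalling in human, the values were -0.08 and -0.04 in siDhx30, against -0.34 and -0.25 in siTfam. The 5 lower genes were Dhx16 (-0.22, interval -0.64 to 0.19), Dhx35 (-0.17), Ddx1 (-0.11), Ddx39 (-0.11) and Ddx23 (-0.05). Dhx16, which activates the spliceosome, lay at -0.05 and -0.14 in siDhx30, against 0.10 and 0.15 in siTfam, so that its sign relative to NC differed between the siRNAs. Dhx35, also of the spliceosome, lay at -0.05 and -0.15 in siDhx30, against 0.14 and 0.0050 in siTfam. Ddx1, of the tRNA ligase complex, lay at 0.05 and -0.0034 in siDhx30, against 0.18 and 0.08 in siTfam, and the mRNA export factor Ddx39 at -0.09 and -0.01 in siDhx30, against 0.0009 and 0.11 in siTfam. Adgre5 shares 17.4% of the exon bases of Ddx39 on the opposite strand.

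**Figure D4:**
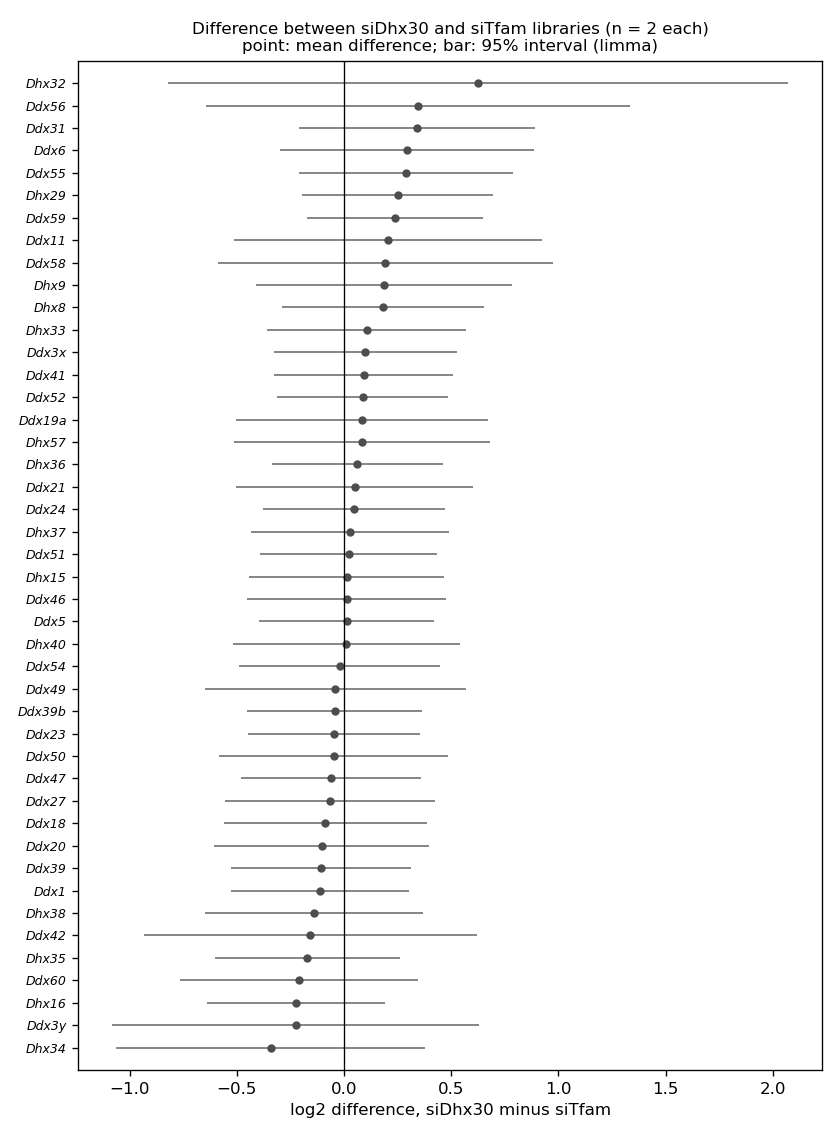
Mean log2 difference of siDhx30 minus siTfam libraries (horizontal axis; n = 2 each) for the 44 helicase genes, with 95% limma intervals as bars. Every bar crosses 0, and the widest belongs to Dhx32, whose siDhx30 replicates lay at -0.22 and 1.17.

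Other RNA helicases, whose names do not start with Ddx or Dhx, also had medians near NC. Of 19 listed, 15 were measured. Their median was -0.03 in siDhx30 against NC (8 of 15 below 0) and -0.01 in siTfam against NC (8 of 15 below 0). In siDhx30 against siTfam it was 0.06 (7 of 15 below 0). Of all genes, 51.9%, 52.7% and 50.2% lay below 0 in these comparisons. None of the 15 other helicases passed. The translation helicase Eif4a1 lay at -0.18 and 0.05 in the siDhx30 libraries, and -0.03 and 0.17 in the siTfam libraries. Partners of Dhx30 at mitochondrial RNA granules and in mitoribosome assembly were measured for 18 of 21 listed genes, with 7 of 18 below 0 in siDhx30 against NC (median 0.01) and 9 of 18 below 0 in siTfam against NC (median 0.02), again with none passing. Grsf1, an RNA-binding protein of the granules, lay at -1.66 and -1.29 in siDhx30, with -1.47 and -1.09 in siTfam. Its siDhx30 mean of -1.48 was further from NC than that of any of the 44 helicase genes. Between siDhx30 and siTfam Grsf1 differed by -0.20 (interval -0.85 to 0.46), and both comparisons with NC share the NC library. Below NC in all 4 libraries were 5 of the 18 partners, beside 22.4% of all genes. Above it were 6, beside 20.1%, among them Mrm1 and Nsun4 (siDhx30 means 0.59 and 0.56). Of the markers of other cells that the cultures could hold, 3 of 7 feeder fibroblast genes had complete values, and they lay on both sides of NC. Their means in siDhx30 and siTfam were -0.75 and -0.32 for Col1a2, 0.69 and 0.32 for Thy1, and 0.27 and 0.53 for Vim. For primitive endoderm 3 of 7 had complete values, with means in siDhx30 and siTfam of -0.53 and -1.46 for Dab2, 0.02 and -0.38 for Col4a1, and -0.93 and -1.63 for Col4a2. Gata6, also listed, had a value only in siDhx30 replicate 2, at 1.58, and was not tested. All values of genes with a missing value lie on that side of NC. The siDhx30 replicates differed for Dab2, at -1.04 and -0.02. Of the stem cell markers with a row, Esrrb lay at 0.06 and 0.02 in siDhx30, with 0.85 and 0.02 in siTfam. Tfcp2l1 lay at -0.24 and 0.03 in siDhx30, with -1.14 and 1.71 in siTfam, so the siTfam replicates differed for both genes. None of the markers with complete values passed, and the part of other cells in the helicase values was not tested.

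Ratios varied with GC content, most in siDhx30 replicate 1, and with transcript length, with a sign that differed between libraries. Over the 44 helicase genes, the Spearman correlation of the ratio with transcript GC content was -0.36 in siDhx30 replicate 1 and -0.08 in replicate 2, and -0.17 and -0.0021 in siTfam replicates 1 and 2. Over 9257 protein-coding genes it was -0.33, -0.08, -0.24 and -0.07 in the same order. The correlation with transcript length was 0.31, -0.06, 0.24 and -0.06 over the helicase genes. Over the protein-coding genes it was 0.18, 0.03, 0.06 and -0.18. The points share their library, and the correlations are descriptions. With trends on length and GC content removed, the siDhx30 mean was -0.90 for Dhx40, 0.44 for Ddx41, 0.21 for Dhx36, -0.33 for Dhx37 and -0.12 for Ddx54. The family's median was then -0.04 in siDhx30 against NC and -0.05 in siTfam against NC.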

How the data were processed

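The authors deposited log2 fold values per gene in 1 table, per the file headers, with a column for each siRNA library. The headings of the siDhx30 columns read DHAX30, and they were taken to mean the samples titled siDHX30 with the same replicate number. Tools named by the submitters' processing notes are DESeq2, featureCounts, HISAT2 and bcl2fastq, on build GRCm38. Their settings are not stated, and without read totals no counting interval is given. Signs were turned to siRNA over NC. Of 12930 gene names, 12660 matched a GENCODE M21 symbol.

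Genes with a value in all 4 libraries (12088) were fitted with limma 3.58.1 in R 4.3.3. NC entered as a column of 0, which leaves 2 residual degrees of freedom and assumes that NC varies as the siRNA libraries do. Moderation used robust=TRUE without an abundance trend. Adjustment was by Benjamini-Hochberg over all genes (threshold 0.05). The fit was also run on simulated data, and the outcome of that run is not reported here. Length and GC content are those of the longest transcript. Python 3.11.15 with pandas 2.3.3 and matplotlib 3.10.9 made tables and plots.

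Named are, in each comparison, the 5 highest and 5 lowest genes with replicates on one side, the extremes of each role list, and Dhx15, Dhx9, Ddx3x, Ddx5, Ddx6, Ddx21, Dhx36 and Ddx58. Others, such as Ddx51, Dhx57 and the grouping by motif form, were picked with their values in view. The members and lists were chosen with earlier results of these data known. The closing section gives the alternatives tried.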

Additional observations from a re-analysis of the deposited data

How the results depend on the processing

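The count of helicase genes passing stayed at 0 in each of the 3 comparisons under every alternative run: robust=FALSE, genes with a missing value kept, only the libraries compared, centring on the median of all genes, protein-coding genes only, length and GC trends removed, and leaving out each siRNA library in turn, where the lone library is assumed to vary like the other siRNA's. The smallest adjusted p among 35 named values under these alternatives was 0.493. Many alternatives leave the log2 value of a helicase gene as it is and change only its error, so they could not change its sign. They are robust=FALSE, genes with a missing value kept, only the libraries compared and protein-coding genes only. The replicate block and, against NC, leaving out a library of the other siRNA are also among them. With these included, 354 of 360 alternative values kept their sign, and most of the named genes were picked for replicates on one side of 0. The 6 others are in siDhx30 against NC, and their cause was not tested. Leaving out 1 library gave a range of -0.22 to 1.17 for Dhx32, -0.0827 to 0.0693 for Ddx58 and -0.0148 to 0.0772 for Ddx60. Removing length and GC trends gave -0.0095 for Ddx52 and -0.0739 for Ddx60, and centring gave 0.0035 for Ddx58. Over all 44 genes, 20 changed sign under at least 1 alternative in siDhx30 against NC, 17 in siTfam against NC and 25 in siDhx30 against siTfam. They were not only values near 0: Dhx32, at 0.47 in siDhx30 against NC and 0.63 in siDhx30 against siTfam, and Ddx3y, at -0.21 in siTfam against NC, were among them. The family's median difference between siDhx30 and siTfam ranged from -0.0046 to 0.0412 when 1 library was left out. For Dhx40 the adjusted p ranged from 0.569 to 0.999 in siDhx30 against NC and from 0.493 to 0.918 in siTfam against NC. Ribosome biogenesis values under all alternatives were computed after that list was seen: their siDhx30 median against NC was -0.11 without siDhx30 replicate 2. The replicate numbers are shared by the siRNAs, but no label says what they mark. Deviations of same-numbered libraries from their group means had a correlation of 0.254 over genes, in only 2 pairs. With a replicate block, 0 of 44 helicase genes passed in siDhx30 against siTfam, and the median difference was 0.0177. No block was possible against NC, which has 1 library. The unknown depth and the single NC library limit what can be detected.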
